A study of Rattus norvegicus with 12 samples.

Results

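Rat miRNAs are numbered roughly in the order in which they were named, and 94 of the 677 rat miRNAs on the array carried a number of 1000 or above. These late-numbered miRNAs were taken by a rule on names alone, every rat miRNA so numbered with any letter or arm suffix. The rule used no measured value, though it was set with earlier results of these data known. They were measured in soleus, a slow-twitch hind limb muscle, of 12 male Sprague-Dawley offspring at the age of 1 year, with 1 array of 1 colour per rat. The 6 control offspring came from dams on a standard chow diet and the 6 HF offspring from dams on a diet rich in saturated fat and sucrose, given from before mating through pregnancy and lactation, and all offspring ate chow after weaning. Each of the 2 array slides held 3 control and 3 HF rats, and whether rats shared a litter is not given in the sources used here. The question put to the arrays was which muscle miRNAs differed in adult offspring of HF dams, a model of insulin resistance programmed in early life.

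A miRNA is cut from a hairpin precursor, and its seed, bases 2 to 8 of the mature strand, is the stretch by which it mainly recognises target mRNAs. Low numbers went to the first miRNAs cloned, which are mostly abundant and shared between vertebrates, while later numbers came with deep sequencing, which also reported rare miRNAs and small RNAs read from the strand opposite a hairpin already known. Muscle is known for miR-1, miR-133, miR-206 and, in slow fibres, miR-499 and miR-208b. Here all 12 arrays detected miR-1, miR-133a, miR-133b, miR-206 and miR-499, and 11 detected miR-208b-3p. The blood cell and vessel miRNAs listed as markers were also on all 12 arrays, the liver miRNA miR-122 was on 10, the neuronal miR-124 on none and miR-9 on 1, and the epithelial miR-200a and miR-200b were each on 1, the array of rat H3, with miR-200c and miR-141 on none.

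Few late-numbered miRNAs were seen in soleus. Of the 94, 80 (85.1%) were detected on no array, 6 on 1 to 5 arrays, miR-3584-5p on 7, and 7 on all 12 arrays: miR-1224, miR-1249, miR-1949, miR-2985, miR-3085, miR-3573-3p and miR-3593-3p. Among the 583 lower-numbered miRNAs, 352 (60.4%) were detected on no array and 155 on all 12. On a single array, 7 to 11 late-numbered miRNAs were detected, which was 7.45 to 11.7% of them, against 29.0 to 36.2% of the lower-numbered miRNAs. The gap between these shares was 22.9 ± 2.04 percentage points (mean ± SD, n = 12 arrays) and lay between 20.2 and 26.6 points on every array. With star names, the older notation for the rarer strand of a hairpin, left out of the lower-numbered miRNAs, the gap widened to 33.9 points. That comparison is uneven, since late-numbered names carry no stars and both arms of hairpins such as miR-1188 and miR-1193 stayed in.

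Detection was lowest among the numbers in the 3000s. Of the 9 miRNAs numbered 1000 to 1999, 3 were detected on at least 6 arrays, as was 1 of the 2 numbered in the 2000s, miR-2985, but only 4 of the 83 numbered in the 3000s (4.82%). Among lower-numbered miRNAs without a star name this share was 79.3% for numbers up to 99, 62.9% for 100 to 199, 27.9% for 200 to 299, 32.3% for 300 to 399, 26.3% for 400 to 499, 23.1% for 500 to 699 and 13.3% (4 of 30) for 700 to 999. The names on either side of the limit did not differ: miR-881, miR-883, its star strand and miR-935 just below it, and both arms of miR-1188 and miR-1193 just above it, were detected on no array. These shares are a description with no test, since miRNAs of one hairpin or family share sequence and transcript.

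**Figure D1:**
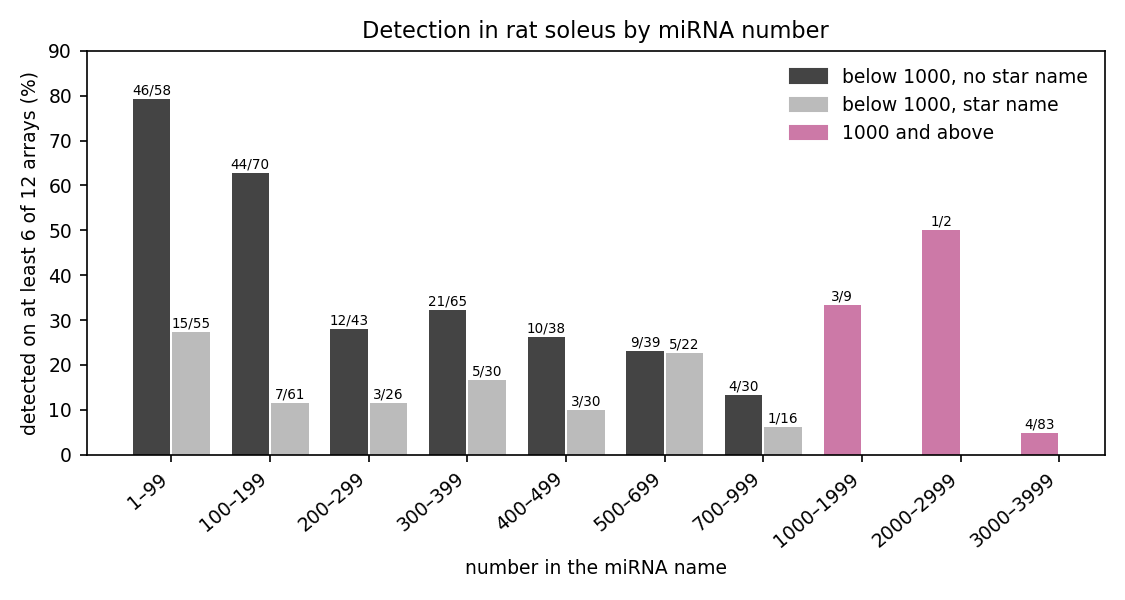
Percent of miRNAs detected on at least 6 of 12 arrays (y axis) by the number in the name (x axis), with the counts over each bar; dark bars are names without a star, grey bars star names and pink bars the miRNAs numbered 1000 and above. The share is 79.3% for the first numbers and 4.82% (4 of 83) for numbers in the 3000s.

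The sequences of the late-numbered miRNAs detected on at least 6 arrays are printed here because most late-numbered signals described further on are theirs. The array's probes were not compared with these sequences. RefSeq's miRNA table (GRCr8) held a mature sequence for 76 of the 94 names, including all 14 that were detected at least once. Capitals mark the seed.
miR-1224: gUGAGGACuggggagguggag
miR-1249: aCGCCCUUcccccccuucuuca
miR-1949: uAUACCAGgaugucagcauaguu
miR-2985: uGUUAUAGuaucccaccuaccc
miR-3085: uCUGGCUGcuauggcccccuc
miR-3573-3p: uUCCUAACucugcccccucccau
miR-3584-5p: gGGAGGAGuccaggaggc
miR-3593-3p: cUUCAACCuuaagggggccuca

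No seed was shared among the 76, and none of the 14 detected ones had the seed of a lower-numbered miRNA in that table. The 4 late-numbered miRNAs with a lower-numbered seed were miR-1193-3p (that of miR-370-5p), miR-3065-5p (miR-7a-1-3p), miR-3573-5p (miR-423-5p) and miR-3596d (3p arms of the let-7 family and miR-98), and all 4 were detected on no array. In GRCr8 miR-1224, known as a mirtron, a miRNA made from a short spliced intron, lies at chr11:93811355-93811375 (minus strand) within the span of Vwa5b2. The minus-strand miR-1249 (chr7:117955547-117955568) lies within Kiaa0930, and miR-1949 (chr18:27429753-27429775, plus strand) within Matr3, which encodes an RNA-binding protein of the nuclear matrix. The minus-strand miR-2985 (chr2:168254526-168254547) lies within Gria2, which encodes a subunit of the AMPA glutamate receptor, and miR-3573-3p (chrX:68299322-68299344, plus strand) within Efnb1, the gene of ephrin-B1. The position of miR-3584-5p (chr1:256727582-256727599, minus strand) falls within Itprip, while miR-3085 (chr1:251038197-251038217) and miR-3593-3p (chr6:78987770-78987791), both on the minus strand, lie within no protein-coding gene of the table. The table gives gene spans only, so exon, intron and UTR are not given here.

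Many late-numbered miRNAs are read from the strand opposite a known one. Of the 76 sequences, 33 were the reverse complement of a lower-numbered miRNA over 16 to 22 bases and overlapped it on the opposite strand. Of these 33, 3 were detected at least once (9.09%) and 0 on 6 or more arrays, whereas of the other 43, 11 were detected at least once (25.6%), 8 on at least 6 arrays and 7 on all 12. These counts are a description with no test, because several pairs share a hairpin or a family. The pairs printed next are 3 whose partner is among the brightest miRNAs of the muscle and all 3 whose late-numbered strand was seen. Capitals mark the bases that pair.
miR-3571: UACACACUUCUUUACAUUCCAua
miR-1-3p: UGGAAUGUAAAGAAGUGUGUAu
miR-3556a: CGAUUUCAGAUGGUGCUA
miR-29a-3p: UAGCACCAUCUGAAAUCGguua
miR-3596a: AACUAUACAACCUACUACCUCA
let-7a-5p: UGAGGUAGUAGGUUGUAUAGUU
miR-3549: AUCUUGCCCGCAAAGACCC
miR-193a-5p: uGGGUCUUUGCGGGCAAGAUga
miR-3546: AUAACCCGGGCCAAAAGCUCac
miR-208a-5p: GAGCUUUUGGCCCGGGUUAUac
miR-3544: AACUCCUGCAUGACGCCGuuccc
miR-337-5p: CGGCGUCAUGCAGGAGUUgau

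Most of these opposite strands were not seen, whether or not the partner was. For 20 of the 33 the partner hairpin had a miRNA detected on all 12 arrays, and for 18 of these 20 the late-numbered miRNA was detected on none, as were 30 of the 33 in all and 80 of the 94 late-numbered miRNAs. The muscle-specific miR-1 had a median scaled signal of 66950 (lowest 51280, highest 135300 over the 12 arrays), while miR-3571 opposite it was not detected in any rat. miR-29a, of a family that represses collagen genes, stood at a median of 16080 and let-7a, of the family that marks differentiated tissue, at 10740, with miR-3556a and miR-3596a detected on no array. The same held for miR-3074 opposite the miR-24 hairpin (median 9003), miR-3588 opposite miR-125b-5p (4844) and both strands of miR-3557 opposite miR-378 (1542), an intronic miRNA of the metabolic gene Ppargc1b. Scaled signals are listed signals brought to a common array brightness, and since each probe has its own response, signals of different miRNAs do not order their abundance. The brightest array row of the partner hairpin was used, which can be its other arm or can come from more than 1 locus.

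**Figure D2:**
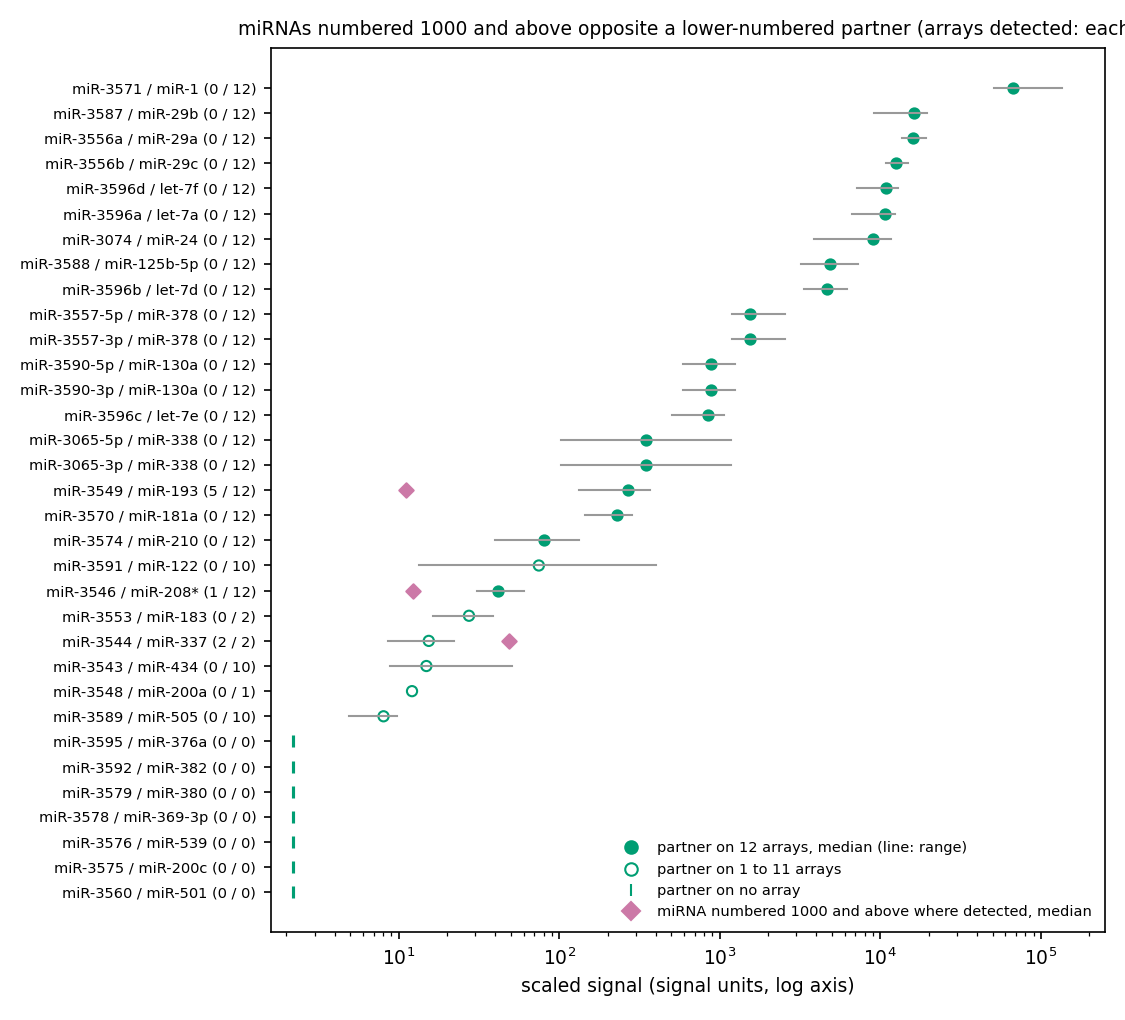
Scaled signal in signal units on a log axis (x) of the brightest row of each partner hairpin, with its median over the arrays where it was detected (circle, filled for 12 arrays) and range (line); the y axis lists the 33 pairs with the number of arrays that detected each miRNA. Diamonds mark the 3 late-numbered miRNAs that were detected, and ticks at the left edge mark partners detected on no array.

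The opposite strands that were seen at all were seen in few rats. miR-3549, opposite miR-193a-5p, was detected in 5 rats with scaled signals of 9.4 to 29.9. In all 12 rats the hairpin's main row miR-193 lay between 133 and 368, and miR-193* was detected only in H3, at 4.46. The single detection of miR-3546, in H3 at 12.4, came from the strand opposite miR-208a in Myh6, the gene of the cardiac alpha myosin heavy chain. The array's miR-208* was detected in all 12 rats at 30.9 to 60.4, with H3 at 35.5, among the lower values. In A110 miR-3544 was detected at 88.98 and in C51 at 8.40, whereas its partner hairpin's miR-337 was detected in 2 other rats, C73 at 22.2 and A89 at 8.59.

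The detected late-numbered miRNAs were richer in G and C than those never seen. Their median GC content was 57.2% (range 39.1 to 72.2%, n = 14) against 47.6% (30.4 to 71.4%, n = 62) for those with a sequence that were detected on no array. A run of 3 C or 3 G (CCC or GGG in the mature strand) was present in 13 of the 14, the exception being miR-1949. Such a run was present in 24 of the 62 never detected (38.7%) and in 281 of all 692 mature rat sequences of the table (40.6%). Among the sequences that pair with no lower-numbered miRNA it was present in 10 of 11 detected (90.9%) and 19 of 32 never detected (59.4%), and among those that pair in 3 of 3 and 5 of 30 (16.7%). Longer runs stand out in the sequences above, as in miR-1249, whose longest run is 7 C, and in miR-3085 and miR-3573-3p with 5 C each. This feature was chosen after the sequences of the detected miRNAs were seen, and it is given as a count with no test.

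The 7 late-numbered miRNAs detected on all arrays were of middle to low brightness. Their mean scaled signals ran from 37.3 for miR-3085 to 643.7 for miR-1224, and of the 155 lower-numbered miRNAs detected on all arrays 53 were brighter than miR-1224, 85 lay within this range and 17 were dimmer than miR-3085. Late-numbered miRNAs made up 0.198 to 0.306% of the summed signal of 11 arrays and 0.554% of that of H3. The scanner software's own error was small beside these signals, with a mean signal of 7.71 to 12.3 times the error for the 7.

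miR-1224 was the brightest. Its scaled signal in control offspring was 681.5 in C73, 458.6 in A110, 543.7 in C60, 568.0 in H10, 484.5 in A89 and 541.3 in A75. In HF offspring it was 535.8 in C51, 1742 in H3, 637.6 in H1, 486.1 in C25, 653.5 in H20 and 391.6 in A37. All rats but H3 lay between 392 and 682, and the groups overlapped. H3 was also the rat with the lowest scaled signal of the muscle miRNAs miR-206 and miR-499 and of the vessel miRNAs miR-126, miR-143 and miR-145. For the other muscle miRNAs listed as markers the lowest rat was C25 (miR-1 and miR-133b), C73 (miR-133a) or C60 (miR-208b-3p, where detected). The part of these differences in the miR-1224 value of H3 was not tested.

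For miR-1949, the signal in control offspring was 273.3 in C73, 300.2 in A110, 320.9 in C60, 405.7 in H10, 210.8 in A89 and 333.7 in A75. In HF offspring it was 337.3 in C51, 251.2 in H3, 374.1 in H1, 244.6 in C25, 262.6 in H20 and 212.6 in A37. The groups overlapped over nearly their whole range, and H10 and A89, both control offspring, were the highest and the lowest rats. miR-3593-3p ran from 78.4 in A110 to 170 in C73 in control offspring, with C60 at 132, A75 at 97.9, A89 at 87.8 and H10 at 79.6. HF offspring lay inside that range, with H20 at 136, H3 at 129.8, H1 at 100.0, C51 at 95.7, C25 at 87.4 and A37 at 85.6.

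miR-1249 had the lowest coefficient of variation of the 7, an SD over all rats of 18.7% of the mean. In control offspring it was 119 in C73, 91.4 in C60, 87.1 in A110, 86.6 in H10, 68.6 in A75 and 63.7 in A89. In HF offspring it was 87.2 in H1, 84.4 in C51, 79.1 in H20, 75.3 in H3, 69.7 in A37 and 65.9 in C25. The rats of the first slide lay at 75.3 or above, those of the second at 86.6 or below, and the diet groups overlapped. miR-3573-3p in control offspring was 79.9 in C73, 79.8 in A110, 66.4 in C60, 52.7 in H10, 46.6 in A75 and 46.3 in A89. In HF offspring it was 64.8 in C51, 56.4 in H1, 52.6 in H3, 49.1 in H20, 46.1 in A37 and 45.4 in C25, so that C73, A110 and C60, the control rats of the first slide, stood above every HF rat.

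miR-2985 and miR-3085 were the dimmest of the 7. For miR-2985 the control values were 52.8 in C73, 64.1 in A110, 67.5 in C60, 45.2 in H10, 38.0 in A89 and 38.8 in A75. The HF values were 43.4 in C51, 49.7 in H3, 47.5 in H1, 34.0 in C25, 34.4 in H20 and 28.7 in A37. For miR-3085 control offspring had 48.0 in C73, 54.55 in A110, 53.0 in C60, 35.6 in H10, 29.0 in A89 and 30.8 in A75. HF offspring had 39.7 in C51, 37.5 in H3, 37.9 in H1, 27.3 in C25, 29.6 in H20 and 24.3 in A37. For miR-2985 every control rat lay above every HF rat of its own slide, on both slides. For miR-3085 this held on the first slide, while on the second A89 (29.0) lay below H20 (29.6). Across slides the diet groups overlapped for both miRNAs. How many of all the tested miRNAs have their diet groups apart within slides was not counted.

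**Figure D3:**
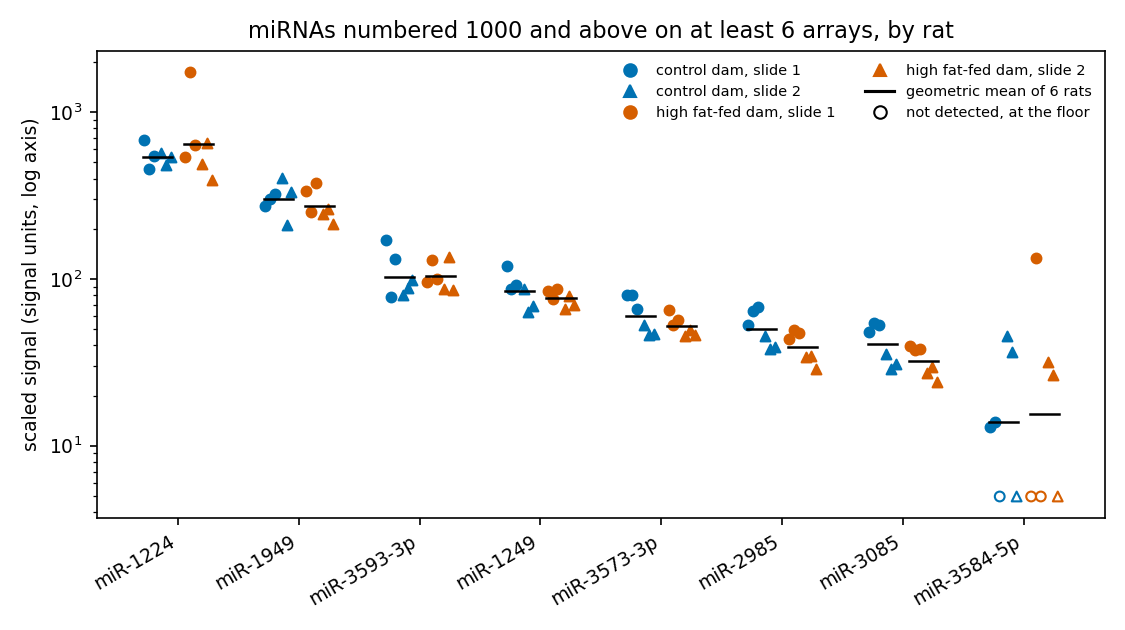
Scaled signal (y, signal units, log axis) of the 8 late-numbered miRNAs detected on at least 6 arrays (x), 1 point per rat, blue for control and orange for HF offspring, circles for the first and triangles for the second slide; bars are geometric means of 6 rats and open symbols at the floor mark rats in which the miRNA was not detected. H3 stands alone for miR-1224 (1742) and miR-3584-5p (134.4). For miR-3085 the first slide lies above the second with no overlap on these scaled signals. As listed, without scaling, its slides overlapped, at 33.19 to 56.84 on slide 1 and 28.09 to 36.6 on slide 2. How many of all the tested miRNAs have slides apart was not counted.

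Dam diet gave no call among the late-numbered miRNAs. In whole muscle, fewer cells of a type and less miRNA per cell cannot be told apart. In limma, with p-values adjusted by Benjamini-Hochberg across 193 miRNAs (those seen on 6 or more arrays), 0 of the 8 late-numbered miRNAs tested had an adjusted p under 0.05 (background over all 193: 0%), and their adjusted p-values ran from 0.682 to 0.988. At an unadjusted p under 0.05 limma also gave 0 of 8, against 2 of the 193 (1.04%), and the methods' t-test gave 0 of 8 after adjustment too. The median log2 change of the 8, HF minus control, was -0.14 against -0.17 over all 193, so the late-numbered miRNAs stood near the middle of the array. The sign of both medians turned when signals were compared as listed, without scaling, to 0.17 and 0.14.

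The most negative changes among the 8, neither past the threshold, were those of miR-2985 and miR-3085. miR-2985 had a median of 49.0 in control offspring (range 38.0 to 67.5) and 38.9 in HF offspring (28.7 to 49.7), a log2 change of -0.36 ± 0.20 (SE, n = 6 per group, limma adjusted p = 0.682, exact two-sided permutation test over 924 assignments, p = 0.0974). miR-3085 had medians of 41.8 (29.0 to 54.55) and 33.55 (24.3 to 39.7), a log2 change of -0.33 ± 0.20 (SE, n = 6 per group, limma adjusted p = 0.682, exact permutation p = 0.139). Both differences had the same sign within the first slide (-0.39 and -0.43) and within the second (-0.33 and -0.23), and the exact permutation p over the 400 assignments within slides was 0.005 for miR-2985, the smallest that this test can give, and 0.01 for miR-3085. With slide as a block, 2 of the late-numbered miRNAs tested had an unadjusted p under 0.05 in limma, against 7 of the 193 (3.63%). These were miR-2985 and miR-3085, both with a limma adjusted p of 0.640. Without scaling the changes shrank to -0.05 and -0.02 on the log2 scale, with exact permutation p-values of 0.788 and 0.89. The 75th percentile by which arrays were divided was 1530 ± 289 signal units in HF and 1243 ± 279 in control offspring (mean ± SD, n = 6 each). Dividing by it is the step that separates the scaled changes from those without scaling. The reason for its difference between the groups was not tested.

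miR-1224 was the late-numbered miRNA with the highest change. Its log2 change was 0.26 ± 0.29 (SE, n = 6 per group, limma adjusted p = 0.736, exact permutation p = 0.582), with 0.60 within the first slide, which holds H3, and -0.09 within the second. As listed, without scaling, it was 0.57 (exact permutation p = 0.0216, limma unadjusted p = 0.0562), and without H3 it was -0.03 on the scaled signals given above (exact permutation p = 0.842) and 0.05 when the scaling was redone without that array. The changes of the other 4 detected on all arrays were -0.14 for miR-1249, -0.13 for miR-1949, -0.21 for miR-3573-3p and 0.01 for miR-3593-3p, with exact permutation p-values of 0.225 to 0.965. For miR-3573-3p the exact permutation p within slides was 0.045, with a change of -0.38 within slide 1 and -0.05 within slide 2.

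miR-3584-5p could not be placed in either direction. It was detected in 4 control and 3 HF offspring (Fisher's exact test, p = 1). It was at 12.9 in C73, 13.9 in A110, 45.2 in H10 and 36.3 in A89 among control offspring, and at 134.4 in H3, 31.6 in C25 and 26.5 in H20 among HF offspring. Its log2 change over a floor of 4.96 for undetected values was 0.15 ± 0.87 (SE, n = 6 per group, limma adjusted p = 0.977), and without H3, with the scaling redone, it was -0.43.

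**Figure D4:**
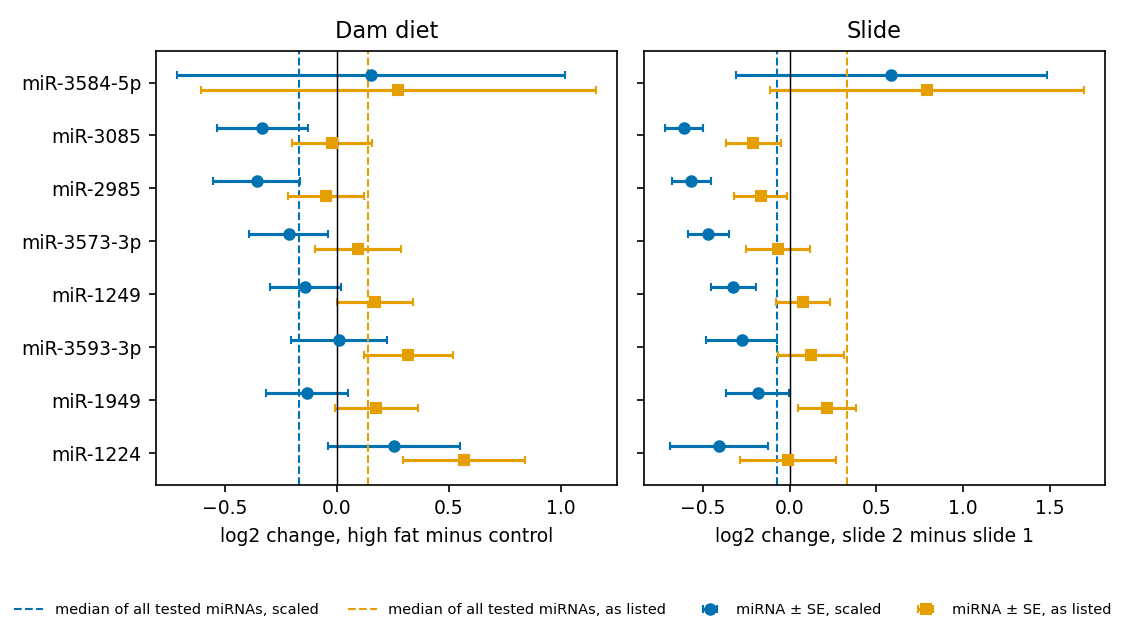
Log2 change of each late-numbered miRNA with its standard error (x) for dam diet (left, HF minus control) and slide (right, second minus first), from scaled signals (blue circles) and signals as listed (orange squares); dashed lines are the medians of the 193 miRNAs tested. Scaling moves all points to the left, and for the slide all but miR-3584-5p lie left of the median on either scale.

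Relative to the rest of the array, miR-2985, miR-3085 and miR-3573-3p were lower on the second slide. This comparison was chosen after the values were seen. In a limma fit of slide and diet, 15 of the 193 miRNAs had an adjusted p under 0.05 for the slide, 10 of them lower on the second slide (5.18%), and these 10 included 3 of the 8 late-numbered miRNAs. The scaled signal of miR-3085 averaged 45.1 ± 7.72 over slide 1 and 29.4 ± 3.79 over slide 2 (mean ± SD, n = 6 each), a log2 change of -0.61 ± 0.11 (SE, limma adjusted p = 0.0122), and the slides did not overlap, at 37.5 to 54.55 against 24.3 to 35.65. How many of the 193 miRNAs have slides that do not overlap was not counted. miR-2985 was 54.2 ± 9.59 and 36.5 ± 5.57, a change of -0.56 ± 0.11 (SE, adjusted p = 0.0138), with the slides overlapping only in C51 at 43.4 and H10 at 45.2. miR-3573-3p was 66.7 ± 11.4 and 47.7 ± 2.75, a change of -0.47 ± 0.12 (SE, adjusted p = 0.0273), where H10 (52.67) lay just above H3 (52.58). Both diet groups had the same sign, from -0.30 to -0.71 for the 3 miRNAs. The count of 3 fell to 0 without H10 and to 1 without C60, and was 2 or 3 without any other rat.

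The slide calls depended on the scaling. The 75th percentile was 1577 ± 281 signal units on the second slide against 1196 ± 212 (mean ± SD, n = 6 each), and under quantile normalization or a percentile over every miRNA 0 of the 8 were called. On the signals as listed, 28 of the 193 miRNAs had an adjusted p under 0.05 for the slide (14.5%), all 28 higher on the second slide, and 0 of the 8 late-numbered miRNAs were among them or had an unadjusted p under 0.05. miR-3085 was then 39.7 ± 8.79 against 33.9 ± 3.07 and miR-2985 47.6 ± 9.82 against 41.95 ± 4.10. The median slide change of the 8 was -0.37 scaled and 0.03 as listed, against -0.07 and 0.33 over all 193.

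The listed signals of the late-numbered miRNAs varied less between arrays than the scaled ones. Over the 12 arrays the coefficient of variation (SD over mean) of the 7 detected everywhere had a median of 19.0% as listed and 26.2% after scaling, and scaling lowered it for 0 of the 7. It was 17.3 and 26.2% for miR-2985, 19.0 and 26.9% for miR-3085, 20.05 and 22.2% for miR-3573-3p and 53.4 and 55.3% for miR-1224. Of the 155 lower-numbered miRNAs detected on all arrays, scaling lowered it for 130 (median 27.1 as listed and 22.3% scaled). Within the brightness range of the 7 it did so for 75 of 85 lower-numbered miRNAs. These are descriptions with no test.

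The late-numbered miRNAs detected on 1 to 5 arrays were each detected on arrays of 1 slide only. For miR-3546, miR-3547 and miR-3564, each on a single array, this holds by construction. miR-3544 was on only 2 arrays, both of slide 1 (Fisher's exact test for slide, p = 0.4545). The same was not counted for lower-numbered miRNAs on 1 to 5 arrays. miR-3549 was detected in 5 of the 6 rats of the first slide and in none of the second: A110 at 29.9, C60 at 12.4, C73 at 11.1, C51 at 9.7 and H3 at 9.4. miR-3562 showed the opposite, detected in 5 of the 6 rats of the second slide and in none of the first: C25 at 23.6, A89 at 23.2, H20 at 16.3, A37 at 15.5 and A75 at 11.4. Over all 677 miRNAs such a split, at least 5 arrays of 1 slide and none of the other, occurred 3 times (0.443%), and the third was miR-101a*, detected on 5 arrays of the second slide. The 677 include 432 miRNAs detected on no array and 162 on all 12, which cannot show such a split. The signal of miR-3549 was only 3.06 to 3.61 times its error in C73, C60, H3 and C51, and 6.02 times in A110. That of miR-3562 was 3.3 to 6.9 times its error where detected. miR-3549 was detected in 3 control and 2 HF offspring and miR-3562 in 2 control and 3 HF offspring. For dam diet Fisher's exact test gave p = 1 for each of the 7 late-numbered miRNAs detected on 1 to 11 arrays. For miR-3546, miR-3547 and miR-3564 the test can give no other value, whichever rat was detected. For miR-3544, on 2 arrays, it could not have fallen under 0.05 either.

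A110 and H3 held the 3 late-numbered miRNAs detected in a single rat. Each had 11 late-numbered miRNAs detected, and the other 10 rats had 7 to 9. miR-3547, at 17.4, was detected only in A110, a control rat. miR-3564, at 28.9, and miR-3546 were detected only in H3, an HF rat, where 9 miRNAs of the whole array were detected and in no other rat. That whole-array count was 3 in A110, 4 in A89 and 0 to 2 in each remaining rat. The number of late-numbered miRNAs detected per array was 8.83 ± 1.17 in control and 8.83 ± 1.33 in HF offspring (mean ± SD, n = 6 each), and HF minus control was -0.33 within slide 1 and 0.33 within slide 2.

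**Figure D5:**
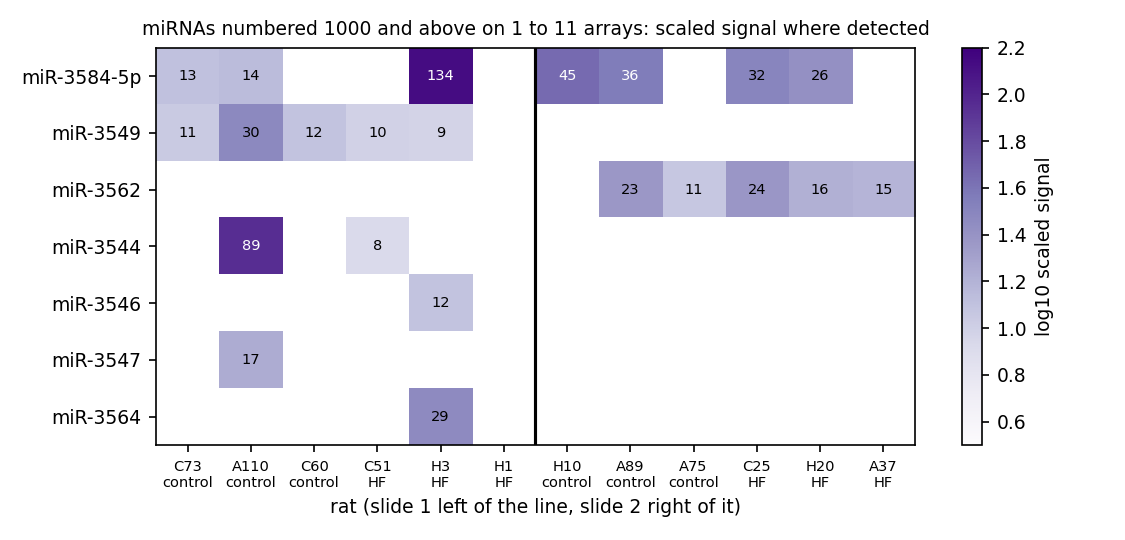
The 7 late-numbered miRNAs detected on 1 to 11 arrays (rows) in each rat (columns, first slide left of the line), with the scaled signal printed and shaded on a log10 scale where detected and blank where not. miR-3549 was detected in 5 of the 6 rats of the first slide and miR-3562 in 5 of the 6 of the second, and the miRNAs detected on 1 or 2 arrays lie in A110, C51 or H3.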

How the data were processed

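The authors deposited, for each array, the total signal intensity of each miRNA with its error and a detection flag. Scanner software had combined spots and subtracted background. Its version and the genome build are not given in the sources used here, and arrays had not been normalized to each other. Undetected miRNAs are listed at 0.1. The deposited series-wide table repeats these intensity values. The 22 control rows were left out. Each array was divided by its 75th percentile over the 162 miRNAs detected on all 12 arrays, brought back to signal units, floored at 4.96 (the median over arrays of the lowest listed signal of a detected miRNA) and put on the log2 scale. limma 3.58.1 (R 4.3.3) was fitted to the 193 miRNAs detected on at least 6 arrays, after the fit was tested on simulated data. Sequences and positions are from RefSeq (GRCr8). The number of arrays limits the precision. The late-numbered miRNAs and the marker lists were chosen with earlier results of these data known. Values were given for every late-numbered miRNA on at least 6 arrays, rat by rat for the 5 brightest and for miR-2985 and miR-3085, and detection for the rest. Alternatives covered scaling, floor, detection filter, blocks, other tests and each rat left out. Human samples were not analysed here.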

Additional observations from a re-analysis of the deposited data

Results flagged for a closer look

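miR-1224 in HF offspring was 1742 in H3 against 391.6 to 653.5 in the other 5 rats, a gap beyond Dixon's limit. This was 1 of the 14 combinations of a late-numbered miRNA and a diet group measured in all 6 rats, where chance alone marks about 1 in 20. A further 5 cases were single detections above rats tied at the floor of 4.96, where the limit is passed by construction and says nothing more than that 1 rat was detected: miR-3544 at 88.98 in A110 among control and at 8.40 in C51 among HF offspring, miR-3546 at 12.4 and miR-3564 at 28.9 in H3, and miR-3547 at 17.4 in A110.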

How the results depend on the processing

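The count of 0 late-numbered miRNAs called for dam diet held under all 26 alternatives fixed for the fit and under the 2 chosen after seeing the data, slide as a block without scaling and H3 and A110 left out together. At an unadjusted p under 0.05 the count was 2 with slide as a block, 2 with array weights and 1 with rats blocked by label letter, and 0 otherwise. miR-2985 and miR-3085 kept their sign in all alternatives, from -0.44 to -0.17 and from -0.43 to -0.15 with each rat left out. In 24 of 222 refits of single miRNAs the sign turned, with no adjusted call, and the cause was not tested. Scaled to a 75th percentile of every miRNA on the array, miR-1249 was 0.032 and miR-1949 0.039. With no scaling, alone or with the slide block, miR-1249 was 0.17, miR-1949 0.18 and miR-3573-3p 0.10, and with quantile normalization miR-1949 was 0.12. Blocked by label letter, miR-1224 was -0.0034, miR-3584-5p -0.42 and miR-3593-3p -0.11. Without H3 and A110 miR-1224 was -0.00094 and miR-3593-3p -0.058. With the floor 4 times lower miR-3584-5p was -0.18. With each rat left out in turn miR-1949 ran from -0.24 to 0.075, the highest without H10. miR-3584-5p ran from -0.43 to 0.54, negative without H3, A75 (-0.15), C60 (-0.10) or C25 (-0.05). miR-3593-3p ran from -0.068 to 0.18, negative without A110, H20 (-0.04), A89 (-0.04) or A75 (-0.0042). The gap in detection from lower-numbered miRNAs, -22.9 points, was -33.9 points with star names left out and -23.1 to -22.5 with each rat left out. The 3 late-numbered miRNAs lower on the second slide became 0 under that percentile, 0 under quantile normalization and 0 with no scaling, and 0 to 3 with each rat left out (0 without H10, 1 without C60). Rats carry individual labels that pair no rat with another, so no paired analysis was possible because the groups share no replicate numbers. Signals near the floor limit what can be read for miR-3584-5p and the rarer miRNAs.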
